A study of Rattus norvegicus with 6 samples.

Results

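The calcineurin-NFAT genes were followed in mRNA libraries of atrial fibroblasts from the rat, which had received either si-NC or si-GPD1L. The 10 genes are the NFAT factors Nfatc1, Nfatc2, Nfatc3, Nfatc4 and Nfat5, the calcineurin subunits Ppp3ca, Ppp3cb and Ppp3r1, and the calcineurin regulators Rcan1 and Rcan2. They were chosen by name out of 40154 genes in the deposited count table, with earlier results of these data known. The filter on low counts, which left 14852 genes for testing, was passed by 10 of 10. Counts were compared with edgeR's quasi-likelihood test, and a gene was called where its Benjamini-Hochberg adjusted p over all genes tested was under 0.05. Of the 10 genes, 2 were called: Nfatc1 was higher and Rcan2 lower in si-GPD1L, against 945 of all genes tested (6.36%). By direction, 599 of all genes (4.03%) were called higher and 346 (2.33%) lower. None of the 10 passed both thresholds, an adjusted p under 0.05 together with an absolute log2 difference over 1, which 240 genes (1.62%) did, although 5 of the 10 had an unadjusted p under 0.05, against 3324 of all genes (22.4%).

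Calcineurin is a phosphatase switched on by calcium and calmodulin. It is made of a catalytic subunit (Ppp3ca, Ppp3cb or Ppp3cc) and a regulatory subunit (Ppp3r1), and it strips phosphates from Nfatc1 to Nfatc4, which then enter the nucleus and act on target genes together with partners such as AP-1. Nfat5 is the calcineurin-independent member of the family and responds to osmotic stress, whereas Rcan proteins bind calcineurin and Rcan1 is itself a well-known NFAT target. In the heart the pathway is known for its part in hypertrophic growth, and Nfatc1 marks the endocardium during valve formation. NFAT activity is set mainly by phosphorylation and location in the cell, which mRNA levels do not measure.

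The cells were isolated from the atria of Sprague-Dawley pups 1 to 3 days old by trypsin digestion and 1.5 h of preplating, grown in DMEM with 10% serum, and collected 24 h after transfection. The si-NC group (a control siRNA) and the si-GPD1L group (an siRNA against Gpd1l) each held 3 libraries, so that all 6 libraries came from transfected cells, labelled with the same treatment, atrial differentiation. The labels do not say whether the digits 1 to 3 number cultures, animals or different siRNAs, and p-values therefore measure only the spread between these libraries, which may be technical. In such bulk samples, fewer cells of a type and less RNA per cell cannot be told apart.

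The libraries held 16892255 to 20149732 counts. Gpd1l, the targeted gene, had normalized counts (counts scaled to a common library size) of 262, 332 and 313 in si-NC and of 220, 208 and 302 in si-GPD1L. The groups overlapped, because si-GPD1L replicate 3 lay within the si-NC range, and the difference was -0.31 on the log2 scale (SE 0.15, edgeR's quasi-likelihood test, adjusted p = 0.234; exact two-sided permutation p = 0.20, where 0.10 is the smallest possible). Without si-GPD1L replicate 3 the difference was -0.50 (edgeR's quasi-likelihood test, adjusted p = 0.0733), so that the lowering of Gpd1l that the labels imply did not pass the test either way. The fibroblast markers Col1a1, Col3a1 and Vim had the highest mean normalized counts of 12 over all 6 libraries (in si-NC alone Postn lay above Vim). Of the 12, 2 were called, both lower (Lum -0.77 and Dcn -0.66), where 2.33% of all genes tested were called lower. Cardiomyocyte markers were also present, at a summed normalized count of 36190 to 37870 in the si-NC libraries and 32470 to 35530 in the si-GPD1L libraries, and 0 of 10 were called with edgeR's quasi-likelihood test (4 at an unadjusted p under 0.05), edgeR's exact test or DESeq2's Wald test. All 12 interferon-stimulated genes were higher in si-GPD1L, with sums of 2866 to 3211 against 24720 to 30230. The part of the interferon genes and of the remaining cell types in the results on the calcineurin-NFAT genes was not tested.

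Promoter sequences were matched for 6 of the 10 genes in the RefSeq table of the GRCr8 assembly, which holds the 250 bases before to the 50 bases after an annotated start. Those of Rcan1, Rcan2 and Nfatc2 are shown because Rcan1 is the known NFAT target of the set, Rcan2 was called and Nfatc2 had the largest fold change of the 10. Capitals mark 2 motifs. The first is the NFAT core, searched as GGAAA and, for the other strand, as TTTCC. The second is the AP-1 site, searched as TGACTCA and, for the other strand, as TGAGTCA. The letters of the pair of motifs cannot overlap.
Rcan1, chr11:45118187-45118486, minus strand: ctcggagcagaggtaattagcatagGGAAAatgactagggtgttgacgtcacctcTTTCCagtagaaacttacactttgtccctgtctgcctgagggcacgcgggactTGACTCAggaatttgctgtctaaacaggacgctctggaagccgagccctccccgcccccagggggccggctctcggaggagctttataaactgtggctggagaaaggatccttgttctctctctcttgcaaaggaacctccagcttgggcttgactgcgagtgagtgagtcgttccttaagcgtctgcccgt
Rcan2, chr9:24672140-24672439, minus strand: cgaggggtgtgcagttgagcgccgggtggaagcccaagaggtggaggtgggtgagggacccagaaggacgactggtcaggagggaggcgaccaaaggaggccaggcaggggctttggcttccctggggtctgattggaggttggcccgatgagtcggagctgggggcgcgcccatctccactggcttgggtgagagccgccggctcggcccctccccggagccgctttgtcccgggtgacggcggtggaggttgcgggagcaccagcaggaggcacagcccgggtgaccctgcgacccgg
Nfatc2, chr3:177732925-177733224, minus strand: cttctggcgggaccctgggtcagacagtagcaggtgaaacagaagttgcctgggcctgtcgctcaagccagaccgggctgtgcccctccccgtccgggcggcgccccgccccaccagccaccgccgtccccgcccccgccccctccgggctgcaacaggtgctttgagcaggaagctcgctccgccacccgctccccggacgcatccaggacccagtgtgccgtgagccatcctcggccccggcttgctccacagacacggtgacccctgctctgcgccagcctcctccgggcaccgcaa

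The Rcan1 window held 2 NFAT cores, GGAAA at -225 to -221 and TTTCC at -195 to -191 from the start, and 1 AP-1 site at -142 to -136. The windows of Rcan2 and Nfatc2 held none of these letters. Among 33469 promoters of the same length, 62.7% held at least 1 NFAT core, 28.5% held 2 or more, 4.63% held an AP-1 site, and 1.35% held 2 or more cores together with an AP-1 site. GC content was 54.7% in the Rcan1 window, 70.0% in that of Rcan2 and 71.7% in that of Nfatc2, beside a median of 51.7% over all promoters. Of the other 3 matched genes, Ppp3cb and Ppp3r1 held 1 core each and Ppp3ca held none. A match describes letters only. In the same assembly the starts used lie inside the gene spans, 69829 bases from the 5' end of the span for Rcan1, 14519 for Nfatc2 and 2045 for Rcan2, and the count tables do not say which start was used.

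Levels were compared between genes on the TPM scale, which divides counts by gene length. On this scale Ppp3cb was the highest calcineurin gene, with 78.1, 71.3 and 73.8 TPM in the si-NC libraries and 64.0, 66.7 and 65.5 TPM in the si-GPD1L libraries. It was followed by Ppp3r1 (66.4 ± 1.47 and 62.1 ± 1.54 TPM, mean ± SD, n = 3 each), Ppp3ca (32.6 ± 1.20 and 33.9 ± 1.65 TPM) and Ppp3cc (16.3 and 21.4 TPM). This order held in 6 of 6 libraries, and the ranges of neighbours did not overlap within either group. The place of Ppp3r1 depends on the length used, which was 5170 bases for the gene. A transcript of 2774 bases took 99.3 to 99.8% of its counts. Before division by length, Ppp3r1 (mean normalized counts of 2689 in si-NC and 2369 in si-GPD1L) was above Ppp3cb (1249 and 1034). Among the NFAT factors Nfat5 had the highest level (40.6 ± 5.71 and 45.8 ± 1.74 TPM), above Nfatc3 (31.0 ± 3.55 and 36.3 ± 1.25), Nfatc4 (28.6 ± 3.27 and 32.9 ± 1.85), Nfatc1 (16.5 ± 3.59 and 27.4 ± 4.20) and Nfatc2 (0.273 ± 0.110 and 0.592 ± 0.128). This order also held in 6 of 6 libraries. The ranges of Nfatc3 and Nfatc4 overlapped in si-NC, and in si-GPD1L those of Nfatc4 and Nfatc1 did. Rcan1 led the Rcan genes with 26.6 ± 0.765 and 29.5 ± 3.65 TPM, whereas Rcan3 (9.51 and 11.9 TPM) was above Rcan2 (9.87 ± 0.541 and 7.35 ± 1.39 TPM) in 5 of 6 libraries, and their ranges overlapped in si-NC. The gene length used for Rcan2 was 3723 bases, and a transcript of 3348 bases took 98.8 to 100% of its counts. In si-NC the order of Rcan2 and Rcan3 therefore also depends on the length used.

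**Figure D1:**
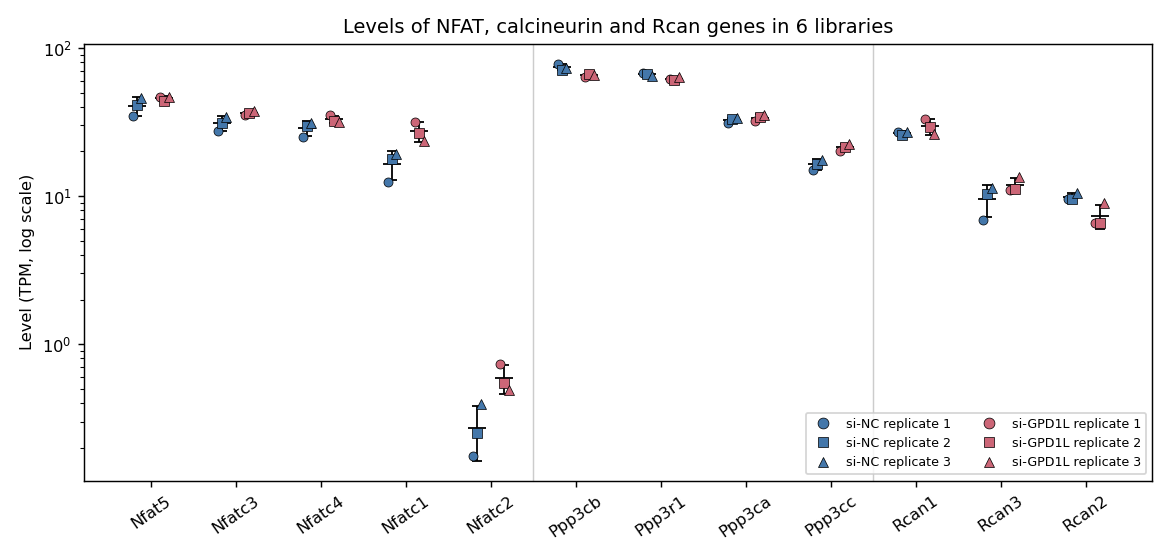
Levels in TPM (log axis) of 5 NFAT factors, 4 calcineurin genes and 3 Rcan genes in each of 6 libraries; blue marks si-NC, red si-GPD1L, marker shapes the replicates, and bars the mean ± SD (n = 3). Nfatc2 lies far below the other NFAT factors, at 0.273 and 0.592 TPM, and Ppp3cb and Ppp3r1 lie highest.

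Of the calcineurin subunits, none of the 3 members was called. Ppp3cb, a catalytic subunit (rn6 chr15:4209702-4236895, plus strand), had normalized counts of 1383, 1171 and 1193 in si-NC and of 1018, 1050 and 1033 in si-GPD1L. All 3 si-GPD1L libraries lay below all si-NC libraries, and si-NC replicate 1 was the highest. The difference was -0.27 on the log2 scale (SE 0.079, 95% interval -0.44 to -0.10), just short of the threshold with edgeR's quasi-likelihood test (adjusted p = 0.0613). Under 14 alternatives the log2 difference stayed between -0.32 and -0.19, and in 6 of them the adjusted p was under 0.05, including 0.0491 without si-NC replicate 1 and 0.0471 without si-NC replicate 3.

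Ppp3r1, the regulatory subunit that binds calcium (chr14:100311224-100360879, plus strand), had normalized counts of 2886, 2655 and 2527 in si-NC and of 2362, 2314 and 2432 in si-GPD1L. The groups did not overlap. The log2 difference was -0.18 (SE 0.072, edgeR's quasi-likelihood test, adjusted p = 0.153), and it was between -0.24 and -0.13 under the alternatives. Ppp3ca, the other catalytic member (chr2:241909332-242186861, plus strand), had 1252, 1233 and 1224 against 1159, 1215 and 1267 normalized counts. Its groups overlapped and its log2 difference was -0.026 (95% interval -0.18 to 0.12, adjusted p = 0.864), which is 88.6 to 109% of the si-NC level. Ppp3cc, the catalytic subunit outside the 10 genes, had 371, 378 and 399 against 451, 474 and 494 normalized counts. Its si-GPD1L libraries all lay above its si-NC libraries, with a log2 difference of 0.31 (SE 0.088, edgeR's quasi-likelihood test, adjusted p = 0.0582), and it was under the threshold in 3 of 14 alternatives, edgeR's exact test and the fits without si-NC replicate 1 or 3. Ppp3r2, the testis form of the regulatory subunit, had 3 counts in 1 library and 0 in the other 5, and was not tested.

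**Figure D2:**
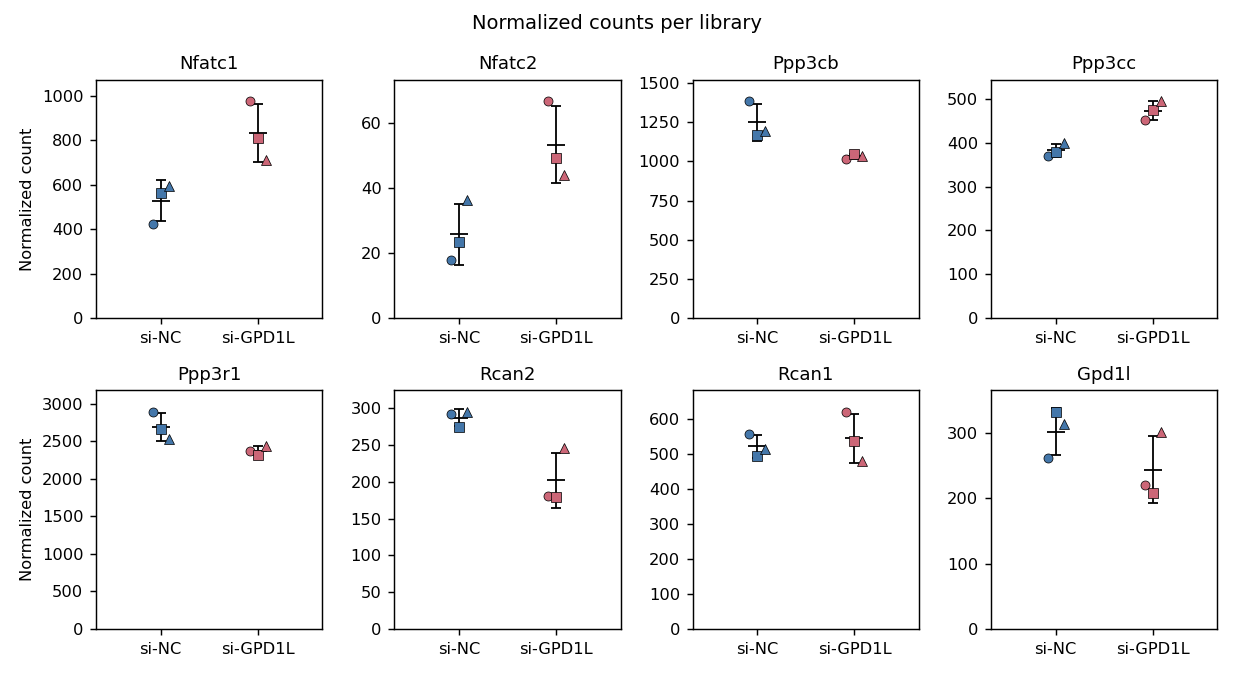
Normalized counts per library of 6 calcineurin-NFAT genes, Ppp3cc and Gpd1l, each axis starting at 0; points are libraries (shapes as replicates 1 to 3) and bars are the mean ± SD (n = 3). Nfatc1, Nfatc2 and Ppp3cc lie higher and Ppp3cb, Ppp3r1 and Rcan2 lower in all si-GPD1L libraries, whereas Rcan1 and Gpd1l overlap between the groups.

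Nfatc1, a calcineurin-dependent factor of the endocardium and of lymphocytes (chr18:77203517-77322690, minus strand), was the NFAT gene that was called. Its normalized counts were 422, 564 and 595 in si-NC and 974, 811 and 713 in si-GPD1L. All si-GPD1L libraries lay above all si-NC libraries; si-NC replicate 1 was the lowest and si-GPD1L replicate 3 was nearest to the si-NC range. The mean rose from 527 ± 92.3 to 832 ± 132 normalized counts (mean ± SD, n = 3), a log2 difference of 0.66 (SE 0.14, 95% interval 0.36 to 0.95, edgeR's quasi-likelihood test, adjusted p = 0.0130), or 158% of the si-NC level (129 to 194%). The direction was the same under 14 alternatives (0.52 to 0.76), and the adjusted p was under 0.05 in 12 of them. Leaving out si-GPD1L replicate 1 gave 0.0891, and leaving out replicate 2 of that group gave 0.0621. Without replicate 3, whose Gpd1l count lay in the si-NC range, the log2 difference was 0.76 (edgeR's quasi-likelihood test, adjusted p = 0.0164). Of the endothelial and endocardial markers, 4 of 11 tested were called, all higher: Plvap (1.44), Cdh5 (1.07), Pecam1 (0.90) and Tie1 (0.56). Over all genes tested, 4.03% were called higher. The others tested, Vwf (0.87), Kdr (0.24), Eng (0.22), Tek (0.20), Cldn5 (0.14), Flt1 (0.12) and Npr3 (-0.17), were not called. Plvap and Cdh5 stayed called in 14 of 14 alternatives, Pecam1 in 11 and Tie1 in 10; both of the latter lost their calls without si-NC replicate 2 (adjusted p of 0.0858 and 0.109 in edgeR's quasi-likelihood test), si-GPD1L replicate 2 (0.152 and 0.211) or si-GPD1L replicate 3 (0.0780 for each), and Tie1 also without si-GPD1L replicate 1 (0.0923). The summed normalized count of all 12 was 10970 to 13110 in the si-NC libraries and 13930 to 14300 in the si-GPD1L libraries, and none was at 0. Eng was the most abundant of them, and Npr3, an endocardial marker, had a log2 difference of -0.17 (edgeR's quasi-likelihood test, adjusted p = 0.338). Whether these markers had a part in the Nfatc1 difference was not tested.

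Nfatc2, best known as a T cell factor (chr3:165241750-165374644, minus strand), was the lowest of the 10 genes. It had 18, 22 and 37 raw counts in si-NC and 61, 54 and 44 in si-GPD1L, or 17.8, 23.3 and 36.1 against 66.5, 49.1 and 43.9 normalized counts. The groups did not overlap, although si-NC replicate 3 and si-GPD1L replicate 3 lay close together. The log2 difference was 1.03 (SE 0.29, 95% interval 0.40 to 1.67), the largest of the 10, and it did not pass edgeR's quasi-likelihood test (adjusted p = 0.0560). In 4 of 14 alternatives it passed both thresholds, with an adjusted p of 0.00253 without the filter on low counts, 0.00887 with edgeR's exact test, 0.0304 with DESeq2's Wald test and 0.0198 without si-NC replicate 3; over all 14 the adjusted p was 0.00253 to 0.226. Of the lymphocyte markers Cd3e, Cd3d, Ms4a1 and Cd247 were at 0 counts in all 6 libraries, where 0 allows up to 3, and the 8 markers summed to 7.81 to 11.9 normalized counts in the si-NC libraries and 8.72 to 20.9 in the si-GPD1L libraries. Lck, a T cell kinase and the single marker of these that was tested, made up most of the sum, with 11, 5 and 4 raw counts in si-NC and 8, 21 and 13 in si-GPD1L. Its groups overlapped, and its log2 difference was 1.03 (edgeR's quasi-likelihood test, adjusted p = 0.239). Whether lymphocytes had a part in the Nfatc2 difference was not tested. Genes that overlap Nfatc2 on the opposite strand had at most 5 counts.

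Nfatc3, Nfatc4 and Nfat5 were not called, and their intervals were narrow. Nfatc3, an NFAT factor of muscle and thymus (chr19:38039542-38114003, plus strand), had 1409, 1500 and 1619 against 1629, 1652 and 1729 normalized counts. The groups stood just apart and the log2 difference was 0.15 (SE 0.073, edgeR's quasi-likelihood test, adjusted p = 0.264). Esrp2, which lies on the opposite strand across Nfatc3, had at most 133 counts, and whether the counting used strand is not given in the sources used here. Nfatc4, linked to cardiac hypertrophy (chr15:34493163-34502238, plus strand), had 655, 716 and 750 against 824, 744 and 740 normalized counts. Its groups overlapped, and the log2 difference was 0.12 (95% interval -0.061 to 0.30, edgeR's quasi-likelihood test, adjusted p = 0.427). Leaving out si-NC replicate 1 gave 0.067, as did leaving out si-GPD1L replicate 1. Nfat5, the osmotic factor (chr19:38446059-38533735, minus strand), had 4046, 4510 and 4905 against 4914, 4558 and 4900 normalized counts. Only si-NC replicate 1 lay apart from the other 5 libraries, and the log2 difference was 0.0945 (95% interval -0.084 to 0.27, edgeR's quasi-likelihood test, adjusted p = 0.537). Without si-NC replicate 1 it was 0.024, and without si-NC replicate 3 it was 0.16.

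Rcan2, a calcineurin regulator (chr9:19518568-19749145, minus strand), was the other gene that was called. Its normalized counts were 293, 274 and 295 in si-NC and 181, 179 and 246 in si-GPD1L. All si-GPD1L libraries lay below all si-NC libraries, and si-GPD1L replicate 3 was closest to them. The mean fell from 287 ± 11.4 to 202 ± 37.8 normalized counts, a log2 difference of -0.51 (SE 0.13, 95% interval -0.79 to -0.22, edgeR's quasi-likelihood test, adjusted p = 0.0396), or 70.3% of the si-NC level (57.7 to 85.6%). Under the alternatives the log2 difference was -0.68 to -0.43 and the adjusted p was under 0.05 in 10 of 14. It rose to 0.0791 and 0.0553 without si-NC replicates 2 and 3, and to 0.173 and 0.199 without si-GPD1L replicates 1 and 2. Without si-GPD1L replicate 3 the log2 difference was -0.68 (edgeR's quasi-likelihood test, adjusted p = 0.0110).

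Rcan1, the Rcan gene whose window is printed with 2 NFAT cores (chr11:32539689-32620274, minus strand), had 558, 494 and 513 normalized counts in si-NC and 619, 536 and 480 in si-GPD1L. The groups overlapped fully, with si-GPD1L replicate 1 the highest and replicate 3 the lowest of the 6 libraries. Its log2 difference was 0.062 (SE 0.10, 95% interval -0.16 to 0.29, edgeR's quasi-likelihood test, adjusted p = 0.773), so that levels of 89.4 to 122% of si-NC lie within the interval. Rcan3, the Rcan gene outside the 10, had 83.1, 114 and 125 against 119, 119 and 145 normalized counts and a log2 difference of 0.25 (adjusted p = 0.431). Without si-NC replicate 1 this difference was 0.091. Over the 10 genes, 6 differences were above 0 and 4 below, with a median log2 difference of 0.078 beside -0.0049 over all genes tested. In 6 of the 10 the groups did not overlap, which held for 29.0% of all genes tested.

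**Figure D3:**
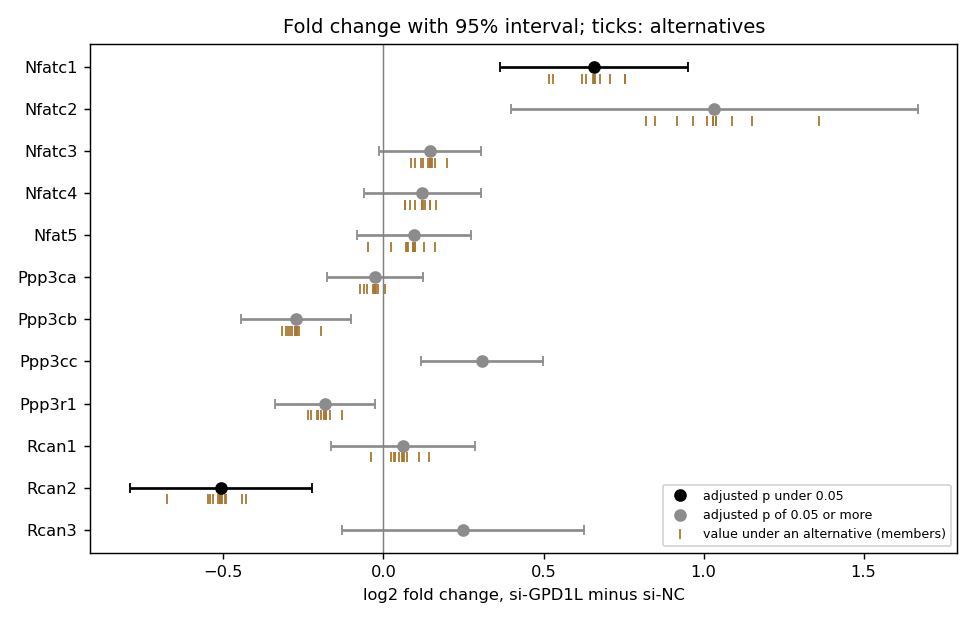
Log2 difference (si-GPD1L minus si-NC, x axis) of the 10 genes, Ppp3cc and Rcan3 with the 95% interval from edgeR's quasi-likelihood fit; black points have an adjusted p under 0.05, and brown ticks give the 14 alternatives for the 10 genes. Nfatc1 (0.66) and Rcan2 (-0.51) are black, and Nfatc2 (1.03) has the widest interval.

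The make-up of each family within a library was taken as the share of its summed TPM. Nfatc1 held 12.5, 14.8 and 14.6% of the NFAT total in si-NC and 21.3, 19.3 and 16.8% in si-GPD1L. The groups did not overlap, and the difference of 5.14 percentage points had an exact two-sided permutation p of 0.10, the smallest that 3 against 3 libraries allow. On raw counts, without division by length, this difference was 3.01 points. Nfatc2 stayed a minor component, at 0.228 ± 0.064% and 0.412 ± 0.073% (difference 0.184 points, exact permutation p = 0.10, n = 3), with a difference of 0.304 points on raw counts. The share of Nfat5 was 34.7 ± 0.255% and 32.1 ± 1.23%, those of Nfatc3 and Nfatc4 were 26.6 and 24.5% in si-NC and 25.4 and 23.0% in si-GPD1L, so that Nfat5 remained the largest component of both groups. Among the catalytic subunits Ppp3cb held 62.9, 59.0 and 59.1% in si-NC and 55.0, 54.5 and 53.1% in si-GPD1L. The share of Ppp3cc was 12.0, 13.6 and 14.1% in si-NC and 17.4, 17.6 and 18.1% in si-GPD1L. Ppp3ca held 26.4 ± 1.19% and 28.1 ± 0.592%, a difference of 1.65 points (exact permutation p = 0.10). It was 0.986 points without si-NC replicate 1 and 1.45 points on raw counts (exact permutation p = 0.20). Among the Rcan genes Rcan2 held 21.9, 21.1 and 21.4% in si-NC and 12.9, 14.0 and 18.5% in si-GPD1L, whereas the share of Rcan1 overlapped between the groups (58.0 ± 3.62% and 60.5 ± 6.10%, a difference of 2.47 points, exact permutation p = 0.60). On raw counts the Rcan1 difference was 5.35 points (exact permutation p = 0.30). The 4 tested shares gave p-values of 0.10, 0.10, 0.10 and 0.60, so no share can pass 0.05 in this design, with or without adjustment over the 4.

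**Figure D4:**
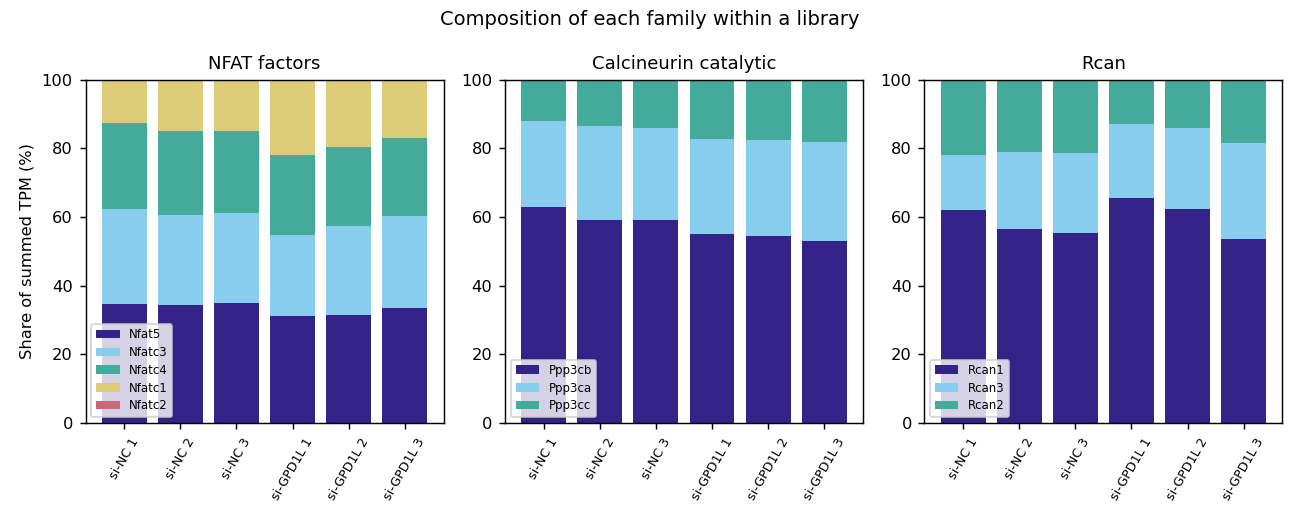
Share of each gene in the summed TPM of its family (y axis, %, 0 to 100) for the NFAT factors, the calcineurin catalytic subunits and the Rcan genes, 1 bar per library. In the si-GPD1L bars Nfatc1 takes 16.8 to 21.3% of the NFAT total against 12.5 to 14.8% in si-NC, and Ppp3cb takes 53.1 to 55.0% of the catalytic total against 59.0 to 62.9%; the Nfatc2 band is too thin to be seen.

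The si-NC libraries differed among themselves in a way that touches long genes. The 11883 genes with a mean normalized count of at least 50 were split by length into 3 equal groups, and for each library the median log2 deviation from the mean of all 6 libraries was taken. In si-NC replicate 1 the longest genes (over 4296 bases) lay 0.230 below the shortest (up to 2237 bases), whereas this difference was -0.026 in replicate 2 and 0.080 in replicate 3 of that group, with 0.045 to 0.071 among the si-GPD1L libraries. Nfat5, at 14180 bases the longest of the 10 genes, was lowest in si-NC replicate 1. With the length trend removed, an alternative chosen after the data were seen, its log2 difference was -0.047 in place of 0.0945. Nfatc1 (0.62, edgeR's quasi-likelihood test, adjusted p = 0.00856) and Rcan2 (-0.55, adjusted p = 0.0174) stayed called, and Ppp3cb was then called as well (-0.29, adjusted p = 0.0179).

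The deposited transcript counts covered 35 transcripts of the 10 genes, of which 33 were tested. Transcripts of a gene share reads and are not independent. The same test called 3 of the 33, beside 2226 of 37822 transcripts (5.89%): the single Nfatc1 transcript (0.64, edgeR's quasi-likelihood test, adjusted p = 0.0118) and both Rcan2 transcripts (-0.56 and -0.53). The 6 tested Nfatc2 transcripts had log2 differences of 0.31 to 1.04, with a lowest adjusted p of 0.0509. The Ppp3cb transcript (-0.29, adjusted p = 0.0586) and the 4 Ppp3r1 transcripts (-0.22 to -0.20) lay below 0, and the 5 Nfatc3 transcripts (0.12 to 0.17), the Nfatc4 transcript (0.10) and the 8 Nfat5 transcripts (0.071 to 0.29) above it. The 3 Ppp3ca transcripts (-0.086 to 0.033) and the 2 Rcan1 transcripts (0.0044 to 0.085) lay around 0, and none of the transcripts outside Nfatc1 and Rcan2 was called.

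Within Nfat5, 7 transcripts of the 8 are shorter than the longest, which took 98.6 to 99.1% of the gene's counts in every library. Each of the shorter 7, which share reads, took 33.6 to 36.1% of the gene's counts in si-NC replicate 1. The range was 41.5 to 45.5% in replicate 2 and 44.7 to 49.4% in replicate 3 of that group, and 45.1 to 51.7% in the si-GPD1L libraries. Again si-NC replicate 1 lay apart from the other 5 libraries. Rcan1 has 2 annotated transcripts, of 2134 and 2355 bases. Gene counts not assigned to the longer, which leaves 149 bases of the gene particular to the shorter, were 10, 27 and 32 in si-NC and 38, 42 and 32 in si-GPD1L, and those not assigned to the shorter, with 370 bases particular to the longer, were 63, 41 and 31 in si-NC and 37, 34 and 25 in si-GPD1L. The shorter transcript's share of these counts was 13.7% (exact 95% binomial interval 6.77 to 23.8%), 39.7% and 50.8% in si-NC and 50.7, 55.3 and 56.1% in si-GPD1L. The lowest value again came from si-NC replicate 1, and si-NC replicate 3 lay just above si-GPD1L replicate 1. The means were 34.7 ± 19.0% and 54.0 ± 2.94% (exact permutation p = 0.20, n = 3), and the si-NC mean was 45.2% without replicate 1. This split was chosen after the counts were seen, intervals cover counting error only, and the table does not say which transcript begins at the start whose promoter is printed.

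**Figure D5:**
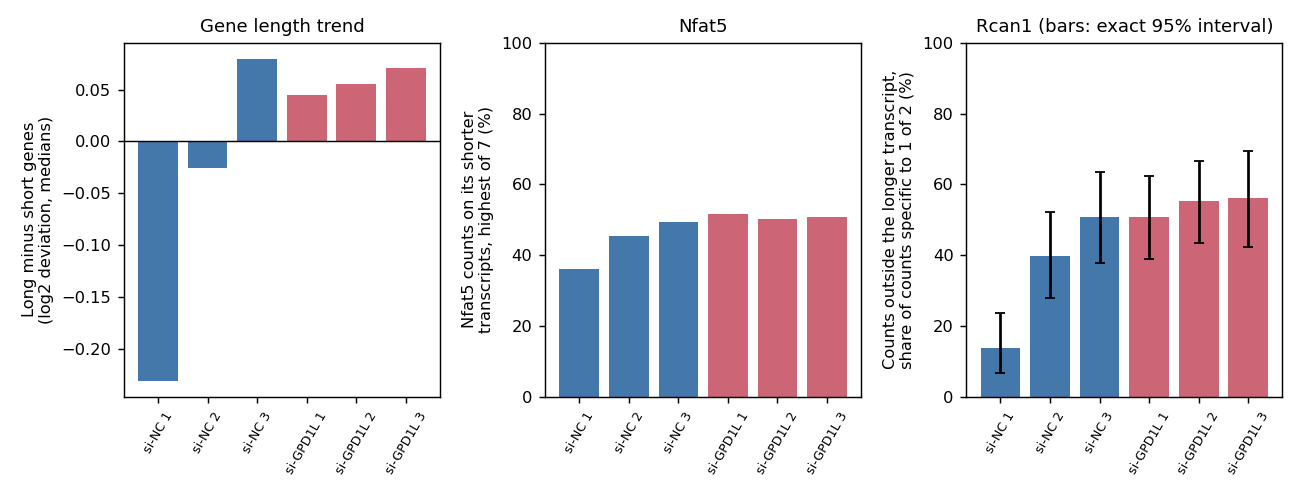
Per library: the difference of median log2 deviations between long and short genes (left), the highest share of Nfat5 counts on 1 of its 7 shorter transcripts in % (middle), and the share of the shorter Rcan1 transcript among the counts particular to 1 of its 2 transcripts in %, with exact 95% intervals (right). In all 3 panels si-NC replicate 1 is the lowest, at -0.230, 36.1% and 13.7%.

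Around the 10 genes, 83 further genes of the pathway in 9 lists were looked up; 76 passed the filter and 8 of these were called, 4 higher and 4 lower, beside 6.36% of all genes. The median log2 difference of the 76 was 0.032. With a library left out the number called was 1 to 15, and the share of all genes called moved with it. It was 15 without si-NC replicate 1 (10.1% of all genes), 5 without si-NC replicate 2 (3.62%), and 2, 1 and 5 without si-GPD1L replicates 1, 2 and 3 (2.41, 2.39 and 3.90%). Upstream, 2 of 15 tested genes of calcium entry and release were called. Itpr3, an inositol trisphosphate receptor of the endoplasmic reticulum, rose (466, 723 and 728 against 945, 922 and 881 normalized counts, log2 difference 0.52, edgeR's quasi-likelihood test, adjusted p = 0.0432). Trpc6, a cation channel of the plasma membrane, fell (212, 160 and 170 against 112, 120 and 131, log2 difference -0.58, adjusted p = 0.0363). The groups did not overlap for either gene, and over 14 alternatives the adjusted p was under 0.05 in 10 for Itpr3 (up to 0.171) and in 9 for Trpc6 (up to 0.154), each losing its call when any of the 3 si-GPD1L libraries was left out. Trpc6 also lost it without si-NC replicate 1 (0.0565), and Itpr3 without si-NC replicate 2 (0.0548). Without si-NC replicate 1 the Itpr3 difference was 0.34. The store-operated calcium entry genes Stim1 (0.16, adjusted p = 0.341) and Orai1 (0.0021, adjusted p = 0.994) were not called, and neither were the 3 calmodulin genes, by this test, by edgeR's exact test or by DESeq2 (0 at an unadjusted p under 0.05). Of calcineurin inhibitors, anchors and targets 0 of 9 were called (3 at an unadjusted p under 0.05), and of NFAT kinases, which put phosphates back on NFAT, 0 of 10 (0 at an unadjusted p under 0.05). Neither list held a call with edgeR's exact test or DESeq2. Without the filter on low counts, the calmodulin gene Calm2 was called, and so was Myoz2 of the inhibitors, anchors and targets. Akap1 of the same list was called without si-NC replicate 1.

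In the NFAT transport and scaffold list 1 of 5 was called, beside 6.36% of all genes tested. Lrrk2, a kinase that holds NFAT in a cytoplasmic complex, rose from 421, 481 and 538 to 636, 637 and 694 normalized counts (0.45, edgeR's quasi-likelihood test, adjusted p = 0.0193). Homer3, a scaffold that binds NFAT, had a log2 difference of -0.24 (edgeR's quasi-likelihood test, adjusted p = 0.0565). It was called under some alternatives, among them edgeR's exact test and DESeq2's Wald test. Homer2 went the other way (0.27, edgeR's quasi-likelihood test, adjusted p = 0.201), and neither it nor Kpnb1 (0.14) or Xpo1 (-0.12) was called. Of the NFAT nuclear partners 2 of 14 were called, beside the same 6.36%. Jun, a subunit of AP-1, rose (751, 724 and 669 against 960, 942 and 902, log2 difference 0.39, adjusted p = 0.0102), and Maf, a leucine zipper factor that works with NFAT in T cells, fell (816, 885 and 1010 against 678, 658 and 756, log2 difference -0.37, adjusted p = 0.0357). The other AP-1 genes listed, Fosl1 (0.66), Fosb (0.22), Fos (0.027), Junb (-0.070), Jund (-0.19) and Fosl2 (-0.26), were not called. Fosl1 had an adjusted p of 0.0788 in this test and was called with edgeR's exact test. For the 3 called genes, Lrrk2, Jun and Maf, every si-GPD1L library lay outside the si-NC range. The adjusted p was under 0.05 in 10 of 14 alternatives for Lrrk2, 12 for Jun and 9 for Maf, and all 3 lost their calls without si-GPD1L replicate 1 or 2. Lrrk2 (0.0932) and Maf (0.0541) also lost theirs without si-GPD1L replicate 3, both without si-NC replicate 2 (0.0651 and 0.0823), and Maf without si-NC replicate 3 (0.0706).

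Of 10 tested genes reported as NFAT targets 1 was called, beside 6.36% of all genes tested. An unadjusted p under 0.05 in the same test was found for 4 of the 10, beside 22.4% of all genes. Ccnd1, which encodes cyclin D1 and drives entry into the cell cycle, had 2295, 2423 and 2556 normalized counts in si-NC and 5405, 4958 and 4562 in si-GPD1L. The groups lay far apart, with a log2 difference of 1.04 (SE 0.081, edgeR's quasi-likelihood test, adjusted p = 2.95e-06), and the gene was called in 14 of 14 alternatives. The other targets tested were Il6 (0.56), Nr4a1 (0.32), Egr2 (0.29), Myc (0.22), Egr3 (0.19), Ptgs2 (0.12), Edn1 (0.013), Vcam1 (-0.0019) and Cdk4 (-0.13). None of them was called in this test. Myc was called without si-NC replicate 1, and Nr4a1 without the filter on low counts. Of the 10 tested targets 8 lay above 0 and 2 below, with a median log2 difference of 0.20. Csf2 was at 0 counts in all 6 libraries. With edgeR's exact test 4 of 8 tested genes reported as osmotic targets of Nfat5 were called (10.3% of all genes), and with DESeq2's Wald test 3 (7.91%). The quasi-likelihood test called 2 of the 8, both lower, where 2.33% of all genes tested were called lower. Aqp1, a water channel, fell from 1027, 957 and 1343 to 748, 650 and 847 normalized counts (-0.57, adjusted p = 0.0202), and S100a4, a calcium-binding protein also used as a fibroblast marker, fell from 4410, 3290 and 3011 to 2365, 2280 and 2371 (-0.61, adjusted p = 0.00841). Neither gene overlapped between the groups, and si-NC replicate 1 held the highest S100a4 count. Without that library S100a4 differed by -0.43 (edgeR's quasi-likelihood test, adjusted p = 1.84e-05). S100a4 was called in 13 of 14 alternatives, not without si-GPD1L replicate 2, and Aqp1 in 12, not without si-GPD1L replicate 1 or 2. Slc38a2 (-0.27, edgeR's quasi-likelihood test, adjusted p = 0.051) and Hspa4l (0.52, adjusted p = 0.0654) were not called, though neither gene overlapped between the groups. The osmotic genes Akr1b1 (0.089), Slc5a3 (-0.077), Slc6a6 (0.043) and Slc6a12 (-0.20) were not called, and for Nfat5 itself the groups overlapped.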

How the data were processed

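Polyadenylated RNA of 6 libraries (3 si-NC, 3 si-GPD1L) was sequenced as paired reads of 150 bases. Per the submitters' processing notes, bcl2fastq, HISAT2 2.1.0, HTSeq 0.12.4 and the build rn6 were used; strand settings are not given in the sources used here. The authors deposited whole-number read counts per gene and per transcript, and TPM values, which are counts per gene length scaled to a common sum. Their comparison tables (fold changes, p-values, enrichment terms) were not used.

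From the counts, edgeR 4.0.16 in R 4.3.3 kept 14852 genes by filterByExpr, applied TMM and the quasi-likelihood test with Benjamini-Hochberg adjustment, all 6 libraries entering without covariates. TPM served for comparing levels between genes and was not tested, except as shares by exact permutation (scipy 1.17.1). Library totals of 16892255 to 20149732 and a biological coefficient of variation of 0.0894 set the precision. The test was first tested on simulated data. Alternatives were DESeq2 (1.42.0) size factors and Wald test, upper-quartile normalization, edgeR's exact test, other filters and thresholds, the replicate block and each library left out; removal of the length trend and the split of Rcan1 transcripts were added after the data were seen. The genes and lists were chosen with earlier results of these data known. All 10 genes, Gpd1l, called list genes (at most 4 a list), list genes at 0 and the leading and called markers are named; other genes were named after their values were seen. Coordinates are rn6, promoters GRCr8. The smooth muscle and pericyte marker list gave 2 of 8 called (Cspg4 0.80, Des -0.35), beside 6.36% of all genes. In that list 4 had an unadjusted p under 0.05 (22.4% of all genes), and 4 were called with edgeR's exact test (10.3%) and 4 with DESeq2 (7.91%). The macrophage marker list gave 0 of 10 called (0 at an unadjusted p under 0.05, 0 with edgeR's exact test and 0 with DESeq2).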

Additional observations from a re-analysis of the deposited data

How the results depend on the processing

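Of the 10 genes, 2 were called (6.36% of all genes tested) and 0 passed both thresholds (1.62%). The shares of all genes moved with these counts. The number called was 4 with edgeR's exact test (10.3% of all genes), without the filter on low counts (7.74%) and at an adjusted p under 0.10 (11.2%). It was 0 to 3 when 1 library was left out: 0 without si-GPD1L replicate 1 (2.41%) or 2 (2.39%), 1 without si-NC replicate 2 (3.62%) and 3 without si-NC replicate 1 (10.1%) or 3 (9.57%). Past both thresholds was 1 gene, Nfatc2, with edgeR's exact test (2.11% of all genes), DESeq2's Wald test (1.62%) and no filter (1.44%), and 0 to 1 with a library left out (1 without si-NC replicate 3, 1.81%). The 8 pathway genes called became 14 with the exact test (10.3%) and 16 without the filter (7.74%), and 1 to 15 with a library left out (15, 5, 2, 1 and 5 without si-NC replicates 1 and 2 and si-GPD1L replicates 1, 2 and 3, beside 10.1, 3.62, 2.41, 2.39 and 3.90% of all genes). The 3 transcripts called (5.89% of all transcripts) became 5 without the filter (5.99%) and 0 to 12 with a library left out (1 without si-NC replicate 2, 12 without si-NC replicate 3, 0 without si-GPD1L replicate 1 or 2, beside 3.26 and 9.16% of all transcripts in the first 2 and 874 of 38290 and 801 of 38160 in the last 2). Among values of single genes under an alternative, 121 kept their direction and side of the threshold, 10 passed it newly and 6 lost it. Left with fewer libraries, the fit had fewer samples to estimate the spread. Signs reversed for Nfat5 with the length trend removed (-0.047), and without si-GPD1L replicate 1 for Ppp3ca (0.0035), Rcan1 (-0.040) and the Rcan1 share (-0.041 points); the cause was not tested. Leave-one-out ranges of the log2 difference were -0.061 to 0.0035 for Ppp3ca, -0.040 to 0.14 for Rcan1 (-0.041 to 5.87 points for its share), -0.50 to -0.21 for Gpd1l, 0.067 to 0.17 for Nfatc4, 0.024 to 0.16 for Nfat5, 0.52 to 0.76 for Nfatc1, 0.82 to 1.36 for Nfatc2 and -0.68 to -0.43 for Rcan2.

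Same-numbered libraries did not deviate together (correlations of 0.040, -0.0036 and 0.047 over 11883 genes). Whether the numbers pair the samples cannot be decided from this, because the deviations also hold differences of single libraries, such as the length trend. With the replicate number as a block 921 genes were called, in place of 945, among them 2 of the 10 genes, with 0.66 for Nfatc1 and -0.52 for Rcan2. The block ended the call of Trpc6 and added Itpr2 among the pathway genes. Depth limits Nfatc2, at 18 to 61 counts a library.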
